A study of Mus musculus with 10 samples.

Results

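Sphingosine-1-phosphate is a lipid messenger that is abundant in blood and lymph and scarce in most tissues. Sphingosine kinases make it inside cells from sphingosine, the transporter Spns2 carries it out of endothelial cells, and G protein-coupled receptors on the cell surface read it. The lyase Sgpl1 cleaves it irreversibly, the phosphatase Sgpp1 returns it to sphingosine in the endoplasmic reticulum, and the lipid phosphatases Plpp1 and Plpp3 dephosphorylate it at the cell surface. Lymphatic endothelium is known as a source of the sphingosine-1-phosphate in lymph, and the receptor S1pr1 is known for keeping endothelial junctions closed.

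Transcripts of 10 genes of this system were examined in meningeal lymphatic endothelial cells (LECs): S1pr1, S1pr2, S1pr3, Spns2, Sphk1, Sphk2, Sgpl1, Sgpp1, Plpp1 and Plpp3. They were chosen by symbol from the 55401 genes of the deposited count table, and each matched 1 gene. The cells were sorted as CD45-CD31+podoplanin+ from the dura of female C57BL/6 mice aged 3 months, and each replicate pooled the meninges of 3 to 4 mice. In all, 5 replicates came from naive mice, which were not stressed, and 5 from mice after sub-chronic variable stress (SCVS), 6 days of alternating foot shock, tail suspension and restraint. The comparison asks how stress changes the transcripts of these cells. In bulk RNA of sorted cells, fewer cells of a type cannot be told apart from less RNA per cell.

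The replicates held 9984743 to 14094155 counts on genes. At this depth, 3 counts correspond to 0.213 to 0.3005 CPM (counts scaled so that each library sums to 1000000), a floor that covers counting error only. The 9 lymphatic endothelial markers summed to 74.4 to 2929 CPM in naive and 471 to 3243 CPM in SCVS replicates, and the 9 pan-endothelial markers to 709 to 9538 and 4847 to 9292 CPM. The 8 blood endothelial markers summed to 313 to 10273 CPM in naive and 5219 to 9324 CPM in SCVS replicates. Of these 8 genes, 3 were above 3 counts in naive replicate 5, and 7 or 8 in each of the other replicates. Naive replicate 1 had 0 counts of Prox1, Pdpn and Tbx1 and 2 of Lyve1, defining lymphatic genes, while the other 5 of the 9 lymphatic markers were above 3 counts, with Flt4 at 376. Naive replicate 5 had 9.58% of the median pan-endothelial sum of the other 4 naive replicates and 16.1% of their lymphatic sum. It held 843 counts of Prox1 and 351 of Pdpn, but 1 of Lyve1 and 0 of Tbx1. Low counts of such genes were also found in the SCVS group. SCVS replicate 1 had 15 counts of Prox1 and 1 of Tbx1, and SCVS replicate 5 had 2 of Prox1. Erythroid markers reached 4915 CPM in SCVS replicate 5 and at most 125 CPM elsewhere. Myeloid markers reached 4096 CPM in SCVS replicate 4 and 3.07 to 826 CPM in the others.

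Per exon length, the set divided into 3 abundant genes and 7 scarce ones. The highest level was that of Plpp1, with 1050 ± 441 CPM per kb (SD over all 10 replicates), followed by Plpp3 with 366 ± 219 and S1pr1 with 145 ± 57.5 CPM per kb. Plpp1 ranked first in all 10 replicates, Plpp3 the second in 9 and S1pr1 the third in 9. The next levels were 18.1 ± 16.5 CPM per kb for Sgpp1 and 10.1 ± 6.37 for Spns2, neighbours whose difference was smaller than their spread. Sgpl1 had 5.86 ± 14.6, S1pr2 4.49 ± 8.79 and Sphk2 3.25 ± 3.72 CPM per kb, and their ranges overlapped one another. Sphk1 followed with 0.851 ± 1.39 and S1pr3 with 0.400 ± 0.901 CPM per kb. Surface phosphatases and 1 receptor were thus the abundant members, whereas kinases, lyase and the other receptors were scarce. Few replicates held most of the counts of Sgpl1, S1pr2, S1pr3 and Sphk1, whereas Sphk2 was above 5 counts in 6 of 10.

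**Figure D1:**
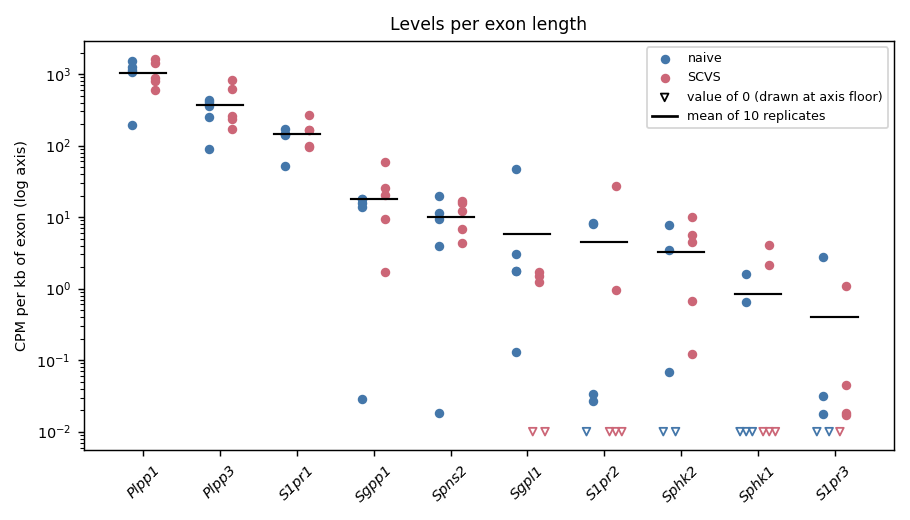
Level of each gene in CPM per kb of merged exon length on a log axis, with naive replicates in blue and SCVS replicates in red. Bars are means of 10 replicates, and open triangles are values of 0 drawn at the axis floor. Plpp1, Plpp3 and S1pr1 lie above every other gene in all 10 replicates, and 5 of the genes have at least 1 value of 0.

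S1pr1 (chromosome 3, positions 115710433 to 115715055 in GRCm38) was the receptor that these libraries contained throughout. The naive libraries held 4619, 6509, 6200, 5810 and 2084 counts of it, here and hereafter in the order of replicates 1 to 5. The SCVS libraries held 4126, 6184, 3645, 10721 and 4995. Naive replicate 5 was the lowest and SCVS replicate 4 the highest, and the groups overlapped. The mean was 396 ± 138 CPM (SD, n = 5) in naive and 481 ± 212 CPM (SD, n = 5) in SCVS cells. The log2 fold change was 0.24 ± 0.39 (SE), with a 95% confidence interval from -0.61 to 1.09 and an edgeR adjusted p of 1.00. The two-sided exact permutation test of mean CPM gave p = 0.524, where 0.00794 is the smallest value that 252 splits of 5 against 5 allow. Without naive replicate 5, the other 4 naive replicates lay between 428 and 510 CPM, inside the SCVS range of 293 to 810 CPM. The log2 fold change was 0.0446 without naive replicate 5 and -0.0504 without SCVS replicate 4.

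S1pr2 and S1pr3 were present in few libraries. S1pr2, another receptor of the family (chromosome 9, 20965952 to 20976793), had 1, 301, 0, 303 and 1 counts in naive libraries and 0, 0, 33, 1029 and 0 in SCVS libraries. S1pr3, the remaining receptor of the set (chromosome 13, 51408618 to 51422797), had 0, 1, 2, 169 and 0 counts in naive and 69, 0, 1, 1 and 2 in SCVS replicates. Each thus had over 3 counts in 2 (S1pr2) or 1 (S1pr3) replicates of each group, and the groups overlapped. S1pr3 did not pass the filter on low counts, and its permutation p was 0.865. S1pr2 had a log2 fold change of 0.86 ± 2.53 (SE; interval -4.67 to 6.39), and without SCVS replicate 4, which was also the richest in myeloid markers, it was -3.69. Whether the myeloid transcripts of that library bear on S1pr2 was not tested. Of the summed level per length of the 3 receptors, S1pr1 made up 90.6% to 100% and more than 95% in 8 of 10 replicates. S1pr4, a receptor outside the set that is described below, was not part of this sum.

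The exporter Spns2 (chromosome 11, 72451638 to 72489976) was found in 9 of 10 replicates above 3 counts. Naive libraries held 860, 610, 225, 528 and 1 counts, and SCVS libraries held 971, 347, 222, 865 and 502. The single low value was naive replicate 5, and the groups overlapped. The mean was 37.1 ± 31.6 CPM (SD, n = 5) in naive and 46.2 ± 22.4 CPM (SD, n = 5) in SCVS cells, with a permutation p of 0.619. The log2 fold change of 0.28 ± 1.06 (SE; interval -2.04 to 2.59) became -0.0398 without naive replicate 5, and the naive mean became 46.3 ± 27.6 CPM (SD, n = 4).

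The sphingosine kinases were detected in some libraries of each group, and Sphk1, at 0 in 6 of 10, was the member most often at 0. Sphk1, the mainly cytosolic kinase (chromosome 11, 116530836 to 116536675), had 32, 0, 0, 0 and 101 counts in naive and 0, 0, 0, 137 and 196 in SCVS replicates. Sphk2, the kinase found in nucleus and mitochondria (chromosome 7, 45709463 to 45718002), had 0, 187, 4, 443 and 0 counts in naive and 597, 287, 34, 244 and 5 in SCVS replicates. Sphk1 was at 0 in 3 replicates of each group, and Sphk2 was at 0 in 2 naive replicates and in no SCVS replicate. Mean CPM of Sphk1 was 2.13 ± 3.32 in naive and 6.00 ± 8.84 in SCVS cells (SD, n = 5 each; exact permutation p = 0.563). Without SCVS replicate 5 the SCVS mean of Sphk1 was 2.59 CPM, and without naive replicate 5 the naive mean was 0.768 CPM. That of Sphk2 was 9.51 ± 14.4 and 17.5 ± 17.0 CPM (SD, n = 5 each; exact permutation p = 0.452). Without SCVS replicate 1 the SCVS mean of Sphk2 was 11.3 CPM, and without naive replicate 4 the naive mean was 3.73 CPM. Sphk2 overlaps Dbp and Rpl18 in the RefSeq annotation, and as the use of strand in counting is not given in the sources used here, reads of the overlaps are uncertain. The same holds for Spns2 with Mybbp1a and Gm40194, Plpp1 with Mtrex and S1pr3 with Gm32834.

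Sgpl1, the lyase (chromosome 10, 61098642 to 61147684), had the log2 fold change farthest from 0 among the 9 tested members, and 1 library set it. The counts were 113, 240, 152, 11 and 3879 in naive libraries and 131, 94, 129, 0 and 0 in SCVS libraries. Naive replicate 5 held 291 CPM, 26.8-fold the median of the other naive replicates, whereas SCVS replicates 4 and 5 held none, and the groups overlapped. The mean was 66.5 ± 126 CPM (SD, n = 5) in naive and 5.50 ± 5.11 CPM (SD, n = 5) in SCVS cells. The log2 fold change was -3.67 ± 1.85 (SE; interval -7.72 to 0.38), with an unadjusted p of 0.0716 and an edgeR adjusted p of 1.00. The exact permutation p was 0.0952. Without naive replicate 5 the log2 fold change was -0.96, the naive mean was 10.3 ± 7.37 CPM (SD, n = 4) and the exact permutation p was 0.19. Without naive replicate 4 the exact permutation p was 0.0159, with 82.9 against 5.50 CPM. DESeq2 gave Sgpl1 no p-value because its Cook's distance filter removed it.

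Sgpp1 (chromosome 12, 75714248 to 75735729) varied between replicates in another pattern. It had 1, 586, 825, 799 and 702 counts in naive and 80, 2403, 846, 409 and 834 counts in SCVS replicates. The lowest naive value was that of replicate 1, naive replicate 5 was at 101% of the median of the others, and SCVS replicate 2 was the highest of all, so that the groups overlapped. The mean was 43.3 ± 24.8 CPM (SD, n = 5) in naive and 77.2 ± 73.9 CPM (SD, n = 5) in SCVS cells. The log2 fold change was 0.75 ± 1.10 (SE; interval -1.65 to 3.15), and the exact permutation p was 0.405. Without SCVS replicate 2 the SCVS mean was 47.2 CPM and the log2 fold change 0.15.

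Plpp1 and Plpp3 were the most abundant members and varied together over the replicates. Plpp1 (chromosome 13, 112800777 to 112867894) had 21481, 22180, 34333, 25500 and 4268 counts in naive and 33279, 31956, 16258, 12897 and 14247 counts in SCVS replicates. Plpp3 (chromosome 4, 105157347 to 105232767) had 11930, 10001, 19434, 17535 and 3727 counts in naive and 27908, 31335, 6737, 9726 and 8289 counts in SCVS replicates. For both genes naive replicate 5 was the lowest and SCVS replicate 2 the highest in CPM, and SCVS replicates 3 to 5 lay below replicates 1 and 2. Plpp1 averaged 1691 ± 812 CPM (SD, n = 5) in naive and 1741 ± 712 CPM (SD, n = 5) in SCVS cells. Its log2 fold change was -0.03 ± 0.45 (SE; interval -1.02 to 0.97), and the exact permutation p was 0.921. Plpp3 averaged 978 ± 453 CPM (SD, n = 5) and 1333 ± 893 CPM (SD, n = 5), with a log2 fold change of 0.36 ± 0.49 (SE; interval -0.72 to 1.43) and an exact permutation p of 0.460. Without SCVS replicate 2 the log2 fold change of Plpp3 was 0.0422 and the difference in mean CPM was 45.0 in place of 355, and without SCVS replicate 1 or naive replicate 5 the difference was 193 or 181. Plpp1 had 1.02 to 2.41 times the counts of Plpp3 in the same library. As a description over 10 libraries that also share their endothelial content, Pearson's r of their log2(CPM + 1) was 0.898, and 0.846 without naive replicate 5.

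**Figure D2:**
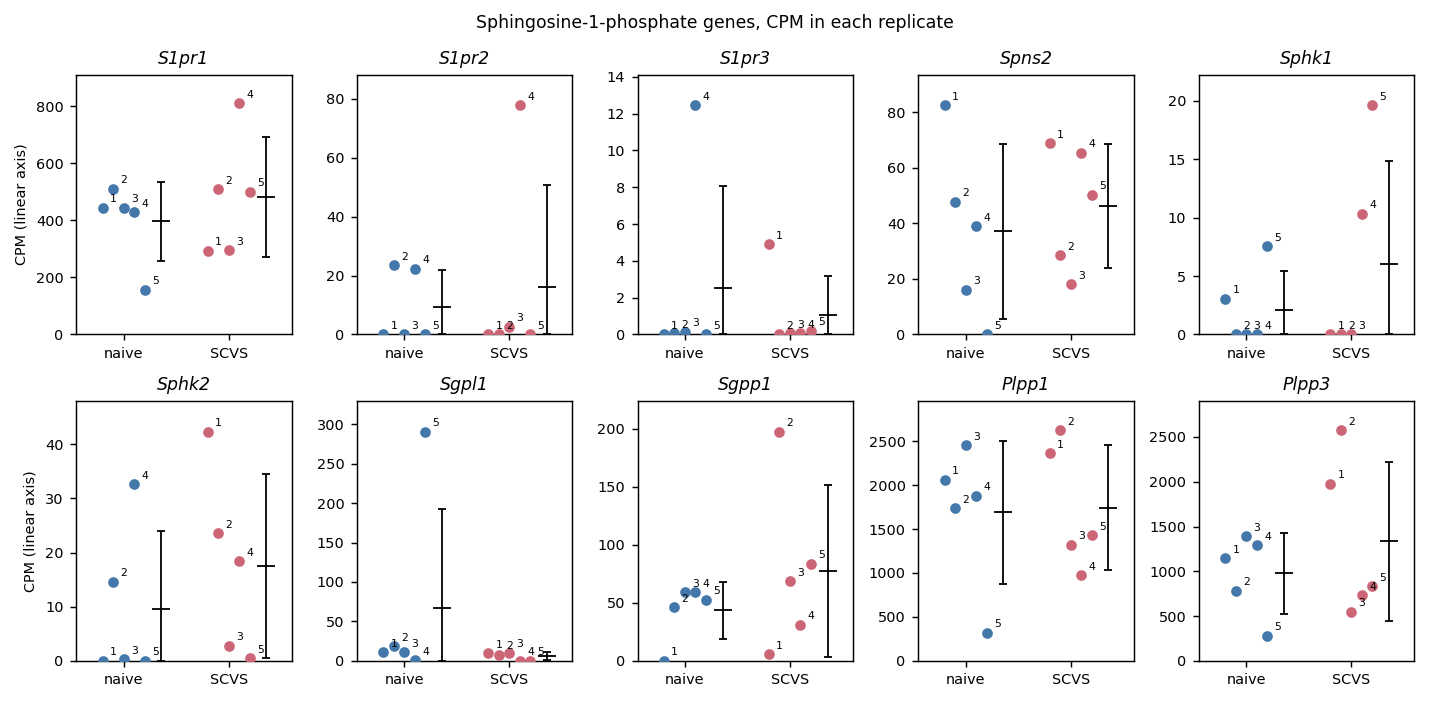
CPM of each gene in the 5 naive (blue) and 5 SCVS (red) replicates on linear axes, numbered by replicate, with the mean and SD of each group in black (the lower arm stops at 0). The groups overlap for all 10 genes, and single replicates set the means of Sgpl1 (naive replicate 5, 291 CPM) and S1pr2 (SCVS replicate 4, 77.8 CPM).

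Over the whole set, SCVS and naive cells were not separated. Of the 10 genes, 9 passed the filter, and 0 of 9 passed the threshold of 0.1 on the adjusted p in the quasi-likelihood test of edgeR, where the share among the 14815 tested genes was 0.0%, with 0 genes called. At an unadjusted p under 0.05, 0 of 9 members stood against 460 tested genes (3.10%). DESeq2 called 0 members and 114 genes in all (0.814% of the 13998 genes with an adjusted p). The groups did not overlap in CPM for 0 of 10 members, against 93 tested genes (0.628%). The median log2 fold change of the 9 members was 0.36 and that of all tested genes -0.03. It was above 0 for 7 members and below 0 for 2, and above 0 for 48.2% of all tested genes. Several of these signs rested on single replicates. Without naive replicate 1, which lacked Prox1 and Pdpn, the log2 fold change was 0.30 for S1pr1, 0.85 for Spns2, 0.43 for Sgpp1, 0.0725 for Plpp1 and 0.44 for Plpp3. Without naive replicate 5 the same genes stood at 0.0446, -0.0398, 0.85, -0.28 and 0.13, and 0 members passed the threshold in either case. With a biological coefficient of variation of 1.59 between replicates, the intervals of even the most steadily detected members extended to 0.97 or more on the log2 scale, and differences inside them were not detectable at this spread.

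**Figure D3:**
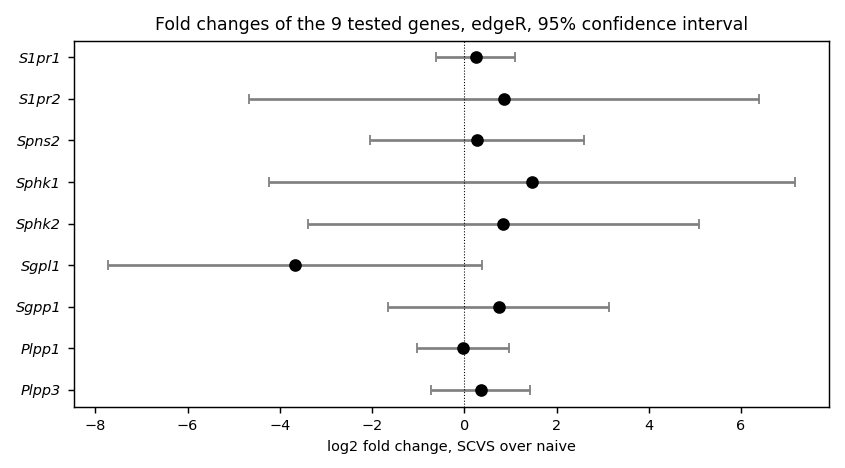
Log2 fold change of SCVS over naive for the 9 tested genes, with 95% confidence intervals from edgeR. All 9 intervals include 0, and they are narrowest for S1pr1 (-0.61 to 1.09), Plpp1 (-1.02 to 0.97) and Plpp3 (-0.72 to 1.43).

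The members also differed in how steadily they were detected. S1pr1, Plpp1 and Plpp3 had more than 5 counts in all 10 replicates, a property of 36.6% of the tested genes, whereas 4 tested members had at least 1 count of 0, as did 53.7% of the tested genes. The coefficient of variation over 10 replicates was 0.397 for S1pr1, and 90.6% of the tested genes had a larger one. At the other end it was 2.50 for Sgpl1, and 2.13% of the tested genes had a larger one.

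The members differed widely in naive replicate 5, the library with few endothelial transcripts. S1pr1 was at 35.3%, Plpp3 at 23.0% and Plpp1 at 16.3% of the median of the other 4 naive replicates, and Spns2 held 1 count. These values stood beside 9.58% for the summed pan-endothelial and 4.04% for the summed blood endothelial markers. Sgpp1 stayed at 101% and Sgpl1 at 2680%. Relative to the pan-endothelial sum of the same library, S1pr1 was higher in naive replicate 5 (22.0%) than in the other 9 replicates (3.40% to 12.7%), as were Plpp1 (45.1% against 15.3% to 28.3%) and Plpp3 (39.4% against 10.7% to 27.7%). Mural markers summed to 5078 CPM in that library, almost all of it Rgs5 with 67407 counts, while Pdgfrb had 0. Neither was particular to it. The mural sum was 7802 CPM in naive replicate 1, 5929 CPM in SCVS replicate 2 and 457 to 3708 CPM in the remaining replicates. Pdgfrb was also at 0 in naive replicate 4 and SCVS replicates 3 and 4. The part of cell content in these values was not tested.

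**Figure D4:**
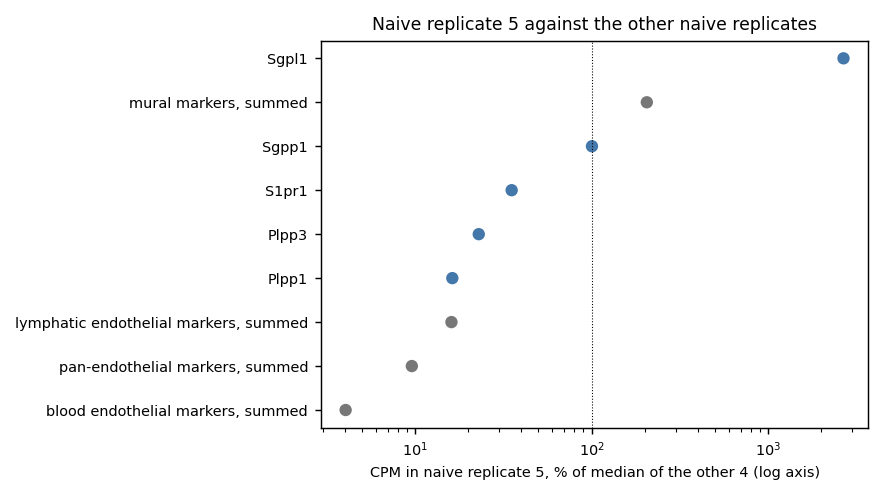
CPM in naive replicate 5 as a percentage of the median of the other 4 naive replicates, on a log axis, for the genes with more than 3 counts there and a median above 0 (blue) and for summed marker lists (grey). The dotted line marks 100%. Plpp1, Plpp3 and S1pr1 lie to the left of it, Sgpp1 on it and Sgpl1 to the right at 2680%.

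The promoter sequences of Spns2 and Plpp3, at low levels in naive replicate 5, are shown beside those of Sgpl1 and Sgpp1, which were not low there. The 4 genes were chosen after their values were seen. Each window runs from 250 bases before to 50 after the start of a RefSeq transcript (GRCm38.p6), 5′ to 3′, and capitals mark CpG dinucleotides. The windows are Spns2 chr11:72474978-72475277 (minus strand, a start within the span of the gene), Plpp3 chr4:105157097-105157396 (plus), Sgpl1 chr10:61147635-61147934 (minus) and Sgpp1 chr12:75735680-75735979 (minus).
Spns2: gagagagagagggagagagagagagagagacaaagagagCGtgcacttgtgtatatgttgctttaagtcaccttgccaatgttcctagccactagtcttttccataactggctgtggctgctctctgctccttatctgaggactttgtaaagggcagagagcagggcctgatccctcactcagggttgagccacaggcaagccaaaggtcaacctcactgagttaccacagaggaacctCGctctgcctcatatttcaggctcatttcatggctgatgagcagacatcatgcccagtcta
Plpp3: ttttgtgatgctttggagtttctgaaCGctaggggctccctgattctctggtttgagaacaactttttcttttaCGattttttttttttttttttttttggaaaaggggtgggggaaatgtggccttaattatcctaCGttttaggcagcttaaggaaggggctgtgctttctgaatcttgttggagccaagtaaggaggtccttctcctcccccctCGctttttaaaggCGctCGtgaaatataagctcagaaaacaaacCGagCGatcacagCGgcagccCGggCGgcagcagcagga
Sgpl1: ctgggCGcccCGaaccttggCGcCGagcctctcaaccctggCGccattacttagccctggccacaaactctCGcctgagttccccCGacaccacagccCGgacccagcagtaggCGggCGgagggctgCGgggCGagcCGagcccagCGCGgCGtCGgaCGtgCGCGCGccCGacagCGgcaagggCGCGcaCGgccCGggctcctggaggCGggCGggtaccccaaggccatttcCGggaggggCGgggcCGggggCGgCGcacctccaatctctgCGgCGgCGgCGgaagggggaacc
Sgpp1: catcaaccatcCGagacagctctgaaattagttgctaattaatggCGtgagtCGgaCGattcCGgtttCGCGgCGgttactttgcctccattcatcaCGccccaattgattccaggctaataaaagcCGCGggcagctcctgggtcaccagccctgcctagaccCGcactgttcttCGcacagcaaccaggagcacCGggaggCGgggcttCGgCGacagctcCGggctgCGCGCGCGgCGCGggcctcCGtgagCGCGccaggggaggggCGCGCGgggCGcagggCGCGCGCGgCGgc
Spns2 had 2 and Plpp3 had 11 CpG dinucleotides, more than 14.1% and 58.6% of all 32851 promoters of this length. Sgpl1 had 38 and Sgpp1 had 36, more than 95.05% and 93.8% of them. S1pr2 had 18 and S1pr3 had 14 CpG dinucleotides, between these. The kinases went the other way: Sphk2, at 0 in naive replicate 5, had 33 and 27 in its 2 windows, and Sphk1, with 101 counts there, had 6 to 21 in its 5 windows. The Spns2 count is that of a start inside the gene, whose 5′ end is at 72489976 and had no window. S1pr1 and Plpp1, also low in naive replicate 5, had no window either. On either strand, the letters CACCC of the KLF element, held by 57.5% of all promoters, were found once in Plpp3 and not in Spns2, Sgpl1 or Sgpp1. The letters CCGGAA of the ETS core, held by 14.9% of all promoters, were found once each in Sgpl1 and Sgpp1 and not in Spns2 or Plpp3. The ETS letters did not follow the level in naive replicate 5 over the other members. They were also found in S1pr2 and in the Sphk2 window with 33 CpG dinucleotides, both genes at 0 or 1 counts there. They were absent from S1pr3, from the other Sphk2 window and from some windows of Sphk1. The KLF letters were also found in S1pr2, S1pr3, both Sphk2 windows and most Sphk1 windows. Such matches describe letters and not binding sites.

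The genes whose pattern was most like that of S1pr1, among 9975 tested genes with a mean of at least 10 CPM, were Pald1 (r = 0.934), Irgm1 (r = 0.933) and Lpcat1 (r = 0.926). The measure was Pearson's r of log2(CPM + 1) over 10 libraries, given as a description. Pald1 encodes paladin, Irgm1 an immunity-related GTPase and Lpcat1 an acyltransferase of lysophosphatidylcholine. All 3 were lowest in naive replicate 5 and highest in SCVS replicate 4, as S1pr1 was. Without those libraries r was 0.741, 0.872 and 0.633. Among the members, r of S1pr1 with Spns2 was 0.763, and 0.277 without naive replicate 5.

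Other genes around the pathway were taken from a list of 60, of which 59 were found by symbol (Cert1 was not matched) and 50 were tested. None of the 50 was called higher or lower by edgeR or DESeq2 at an adjusted p under 0.1. Of all genes, edgeR called 0 of 14815 (0.0%) and DESeq2 114 of 13998 (0.814%). The counts of 0 in the list and its classes therefore do not set it apart. DESeq2 gave no p-value for Enpp2, Cerk and Sptlc3, so it could not call them. At an unadjusted edgeR p under 0.05 there were 2 of 50, where the share of all tested genes was 3.10%. The median log2 fold change of the list was 0.12, with 30 genes above and 20 below 0, where 48.2% of all tested genes were above 0. By class, 0 of 4 other sphingosine-1-phosphate genes, 0 of 10 genes of de novo synthesis, 0 of 4 ceramide synthases and 0 of 4 ceramidases passed. Among sphingomyelin and glycosphingolipid genes 0 of 11 passed, among receptor signalling genes 0 of 13 and among lysophosphatidic acid receptors with autotaxin 0 of 4.

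The remaining receptors S1pr4 and S1pr5 were examined for completeness, after their values were seen. S1pr4, a receptor known from blood cells, had 541, 7, 2, 684 and 0 counts in naive and 1757, 479, 6, 368 and 446 counts in SCVS replicates, and the groups overlapped. Its log2 fold change was 1.13 ± 1.72 (SE). S1pr5 had 0 counts in all 10 replicates, which allows up to 3 counts in each.

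The gene with the highest mean CPM in each class was steadily detected in most cases. These CPM were not divided by length, so they do not rank levels between genes. The class led by Rac1, a GTPase downstream of S1pr1, reached 635 ± 185 CPM (SD over all 10 replicates). Degs1, the desaturase that completes ceramide, had 315 ± 137 CPM, Cers2, a ceramide synthase, 246 ± 72.3 CPM and Asah1, the acid ceramidase, 211 ± 115 CPM. Sgms1, a sphingomyelin synthase, had 276 ± 256 CPM, and Sgpp2, the second sphingosine-1-phosphate phosphatase, 58.5 ± 76.0 CPM. Enpp2, which encodes autotaxin, had 341 ± 610 CPM and reached 28888 counts in SCVS replicate 1. The largest adjusted p among the 50 was 1.00 and the smallest 0.964.

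Kdsr, the reductase of the second step of sphingolipid synthesis, was the 1 gene of the list whose groups did not overlap. It had 0, 113, 138, 115 and 7 counts in naive and 357, 717, 185, 170 and 126 counts in SCVS replicates. In CPM every SCVS replicate was above every naive replicate, 12.6 to 58.9 against 0 to 9.87. The mean was 5.54 ± 4.85 CPM (SD, n = 5) and 24.9 ± 19.7 CPM (SD, n = 5), but the log2 fold change of 2.09 ± 1.43 (SE) had an edgeR adjusted p of 1.00. Non-overlap of this kind was found in 0.628% of the tested genes.

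The 2 genes with an unadjusted p under 0.05 were Mfsd2b and Smpd3, named here after their values were seen. Mfsd2b, the exporter of sphingosine-1-phosphate in red blood cells and platelets, had 0 counts in all 5 naive replicates and 21, 48, 0, 51 and 0 in SCVS replicates. The SCVS mean was at least 7.85-fold higher than the floor of 3 counts per library in naive cells. Its edgeR adjusted p was 0.964. SCVS replicates 1, 2 and 4, which held Mfsd2b, had 531, 283 and 163 CPM of platelet markers, and replicates 3 and 5, which did not, had 277 and 95.1 CPM. Naive replicate 2, also without Mfsd2b, had 327 CPM of platelet markers, and the other naive replicates had 0.0750 to 146 CPM. Erythroid markers were highest in SCVS replicate 5, where Mfsd2b was at 0. Whether platelet or erythroid transcripts bear on Mfsd2b was not tested. Smpd3, a neutral sphingomyelinase, had 0, 0, 0, 1 and 2 counts in naive and 5, 53, 0, 7 and 14 in SCVS replicates. It was at least 5.61-fold higher than the same floor, and at least 2.41-fold without SCVS replicate 2, with an edgeR adjusted p of 1.00.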

How the data were processed

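LECs were sorted from naive and SCVS mice, 5 replicates each. Per the paper's methods, the authors used a whole-transcriptome amplification kit, sequenced paired ends, trimmed the reads and aligned them with Hisat2. They deposited raw counts per gene, with no normalization. The methods name the mm9 build, whereas the submitters' processing notes list GRCm38, cutadapt 1.9.1, HISAT2 2.0.1, HTSeq 0.6.1 and DESeq2. Of the 55401 identifiers, 58.8% are in GENCODE M1 (mm9), so coordinates are given in GRCm38.p6 from RefSeq, and GENCODE M1 was used for exon lengths only. Annotation release and use of strand are not given in the sources used here. Promoters came from a table of RefSeq promoters, in which 8 of the 10 members were matched.

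Tested genes exceeded 5 counts in 3 or more of 10 replicates, the study's own filter. The main test was edgeR 4.0.16 (R 4.3.3), quasi-likelihood after TMM, Benjamini-Hochberg over 14815 genes, threshold 0.1. DESeq2 1.42.0 and limma 3.58.1 were alternatives. CPM were compared by two-sided exact permutation tests for each gene. A floor of 3 counts per library was used. Floors cover counting error only, since amplified reads carry no molecular identifiers. Named genes were all members and, of the pathway list, genes past the threshold, genes whose groups do not overlap, the gene with the highest mean CPM of each class and, for S1pr1, the 3 most correlated genes. Members and lists were chosen with earlier results of these data known. Scripts were tested on simulated counts. Same-numbered replicates are pools of different mice, so no block was used. Python 3.11.15, NumPy 2.4.6, SciPy 1.17.1 and Matplotlib 3.10.9 were used.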

Additional observations from a re-analysis of the deposited data

Results flagged for a closer look

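Among 20 groups of 5 replicates (10 genes in 2 groups), 6 held a replicate whose gap to its nearest neighbour exceeded 0.71 of the group's range. That limit gives about 1 in 20 for normally distributed values. Many of these CPM are 0 or skewed, so that rate does not apply to them, and the flags are a description only. The CPM of S1pr1 in naive replicate 5 was 156, and the nearest other was 428. The CPM of Sgpl1 in the same replicate was 291, and the nearest other was 18.8. The CPM of Sgpp1 in naive replicate 1 was 0.0960, and the nearest other was 45.9. S1pr2 reached 77.8 CPM in SCVS replicate 4, and the nearest other was 2.68. S1pr3 reached 12.5 CPM in naive replicate 4 and 4.90 CPM in SCVS replicate 1, with 0.143 and 0.2003 CPM as the nearest others.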

How the results depend on the processing

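Under all alternatives 0 members and 0 pathway genes passed the threshold. The number of all genes past it was 0 in edgeR's quasi-likelihood test, 114 in DESeq2 (74 higher, 40 lower), 3 in limma voom with quality weights and 38 in edgeR's likelihood ratio test. Genes with an unadjusted p under 0.05 numbered 460, against 774 with voom, 4941 of 29449 without a filter, 139 with 10 or more counts in 5 or more replicates and 266 with the replicate block. They numbered 379 to 595 when 1 replicate was left out. Of the 177 alternative log2 fold changes of members 159 kept their sign and 18 reversed, none past the threshold. For S1pr1 it was -0.26 with the number of detected genes as covariate and -0.0504 to 0.38 with 1 replicate left out. For S1pr2 it was -2.21 with voom, -1.01 with the replicate block, -1.20 with the covariate and -3.69 to 1.58 with 1 replicate left out. For Spns2 it was -0.0398 to 0.85 with 1 replicate left out, and for Sgpp1 it was -0.0531 with the covariate. For Plpp1 it was 0.00536 with voom, 0.0426 with total counts, 0.0200 with upper-quartile factors, 0.14 with the replicate block, 0.0250 with the covariate and -0.28 to 0.16 with 1 replicate left out. The difference in mean CPM ran from -8.54 to 10.9 for S1pr2, -2.45 to 0.995 for S1pr3, -0.112 to 20.5 for Spns2 and -292 to 242 for Plpp1 with 1 replicate left out. On log2(CPM + 1) that of S1pr2 was -0.24. The causes were not tested. Coding length in place of exon length gave the same order of levels. Same-numbered replicates had deviations correlated between -0.01 and 0.13, over 0.1 in 1 of 5 pairs. Of the 5 naive replicates, 4 correlated best with the SCVS replicate of their own number. The numbers were not read as pairs because the pools held different mice. Whether same-numbered pools shared handling was not tested, and a fit with the replicate block is among the alternatives above. Naive means without replicate 5 and the lower bounds with 1 SCVS replicate left out were chosen after seeing the data.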
